A study of Mus musculus with 13 samples.

Results

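The regions described here are 993 wide CpG islands, each holding the transcription start site (TSS) of a single gene. They were taken from a table of 240814 genomic regions by 4 criteria, namely the table's class of CpG islands near a TSS, an autosomal position, a length of at least 1200 bases and exactly 1 TSS inside the island. The table lists 13263 CpG islands near a TSS, of which 7935 were autosomal with 1 TSS. After filters on low and high values and on overlap 7926 remained, the 993 wide islands and 6933 narrow ones of at most 1199 bases, and no wide island was lost to these filters. A further 203 wide autosomal islands held no TSS, 218 held more than 1, and 28 with 1 TSS lay on chromosome X or Y, and none of these was used. The length criterion alone separates wide from narrow islands. Gene symbols were found for 989 of the 993 genes (99.6%).

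The reads came from ChIP-seq, in which chromatin fragments bound by an antibody are sequenced, on mouse neural stem and progenitor cells grown as neurospheres from E14.5 cortices and ganglionic eminences. The labels name a Kat7-deleted genotype, Kat7lox/lox NesCreT/+, with 1 KAT7 library and 3 H3K14ac libraries. They also name a Kat7-intact genotype, Kat7+/+ NesCreT/+, with 3 KAT7 and 4 H3K14ac libraries, and 2 IgG libraries. Both genotypes carry the Cre transgene under nestin control and were harvested on day 3 of passage 5. The table used here holds 1 merged column for KAT7 (named HBO1 there) and 1 for H3K14ac, with read totals of 134111848 and 141734087. Which libraries or genotypes were merged is not stated, so no genotype was compared, no IgG level was subtracted and no value has a replicate.

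Values are RPKM, reads per kilobase of region and scaled to the column's total. The level of a group of islands is its summed reads over its summed length, and the ranges in parentheses are 95% counting intervals, exact Poisson for levels and exact binomial for ratios. Sequenced reads are not independent molecules, so these intervals cover counting error only and not variation between cultures. The interval of a group also leaves out the spread between its islands, so island medians can lie outside it. Since KAT7 and H3K14ac reads were drawn by different antibodies, their ratio has meaning against that of other islands, not against 1. Where a ratio or its interval is set against 1 below, or a column is called higher, this describes the columns as scaled. Such statements depend on that scaling. The table marks each gene as Top, Other or Bottom in expression, with the marks' source not stated. Of 8 neural stem and progenitor markers 5 were Top (Nes, Sox2, Vim, Fabp7 and Slc1a3) and 0 were Bottom. Of 4 neuronal markers 1 (Map2) was Top, and of 3 oligodendrocyte, 3 microglial or blood and 2 endothelial markers none was, with the endothelial gene Cdh5 in the Bottom class.

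CpG islands are stretches rich in CG dinucleotides that cover the start sites of most widely expressed genes and of many developmental regulators. Islands of developmental regulators are often long and reach into the gene, and in cells where the gene is silent they are known as sites of Polycomb complexes. KAT7 (HBO1) is a MYST-family lysine acetyltransferase that works in complexes with BRPF or JADE scaffold proteins, and acetylated lysine 14 of histone H3 (H3K14ac) is its best known product on chromatin.

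The 250 bases before the TSS are shown for 6 members to let the start of contrasting wide islands be seen: 2 transcription factor genes with more KAT7 than H3K14ac (Olig2 and Tlx3), a Bottom class gene (Aldh1a2), 2 genes with more H3K14ac than KAT7 (Cnn3 and Zc3h4) and a housekeeping gene (Eef1a1). Capitals mark CG dinucleotides, each sequence runs 5′ to 3′ on the gene's strand, and all come from RefSeq on GRCm38.p6. They lie at chr16:91225300-91225549 on the plus strand for Olig2, chr11:33203589-33203838 on the minus strand for Tlx3, chr9:71215539-71215788 on the plus strand for Aldh1a2, chr3:121426291-121426540 on the plus strand for Cnn3, chr7:16400946-16401195 on the plus strand for Zc3h4 and chr9:78481725-78481974 on the minus strand for Eef1a1.
Olig2: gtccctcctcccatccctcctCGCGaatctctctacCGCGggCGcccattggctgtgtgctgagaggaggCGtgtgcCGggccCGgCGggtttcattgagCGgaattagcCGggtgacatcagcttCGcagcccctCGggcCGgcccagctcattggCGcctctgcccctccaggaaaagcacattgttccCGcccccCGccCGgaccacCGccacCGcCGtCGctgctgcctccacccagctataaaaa
Tlx3: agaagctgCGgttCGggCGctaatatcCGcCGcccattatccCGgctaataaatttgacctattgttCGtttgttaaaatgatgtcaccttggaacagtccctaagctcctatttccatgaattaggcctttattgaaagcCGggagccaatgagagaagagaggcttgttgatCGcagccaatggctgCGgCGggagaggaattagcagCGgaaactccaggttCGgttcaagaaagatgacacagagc
Aldh1a2: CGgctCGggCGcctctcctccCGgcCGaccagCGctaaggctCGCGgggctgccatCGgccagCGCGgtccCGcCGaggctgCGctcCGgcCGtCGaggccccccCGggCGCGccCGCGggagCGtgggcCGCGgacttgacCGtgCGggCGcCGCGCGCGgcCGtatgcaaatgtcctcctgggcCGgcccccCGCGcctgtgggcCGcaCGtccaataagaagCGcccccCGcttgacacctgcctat
Cnn3: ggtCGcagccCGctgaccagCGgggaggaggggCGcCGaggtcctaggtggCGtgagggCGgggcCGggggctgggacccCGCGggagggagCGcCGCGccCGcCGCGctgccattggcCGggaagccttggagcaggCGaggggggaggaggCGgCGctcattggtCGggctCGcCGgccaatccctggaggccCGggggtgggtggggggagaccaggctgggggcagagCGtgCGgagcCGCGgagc
Zc3h4: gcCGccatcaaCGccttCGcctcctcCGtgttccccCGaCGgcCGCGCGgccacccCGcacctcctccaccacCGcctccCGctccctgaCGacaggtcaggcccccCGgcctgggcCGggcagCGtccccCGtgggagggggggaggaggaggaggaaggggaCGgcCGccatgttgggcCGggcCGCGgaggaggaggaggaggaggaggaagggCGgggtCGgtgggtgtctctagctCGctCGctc
Eef1a1: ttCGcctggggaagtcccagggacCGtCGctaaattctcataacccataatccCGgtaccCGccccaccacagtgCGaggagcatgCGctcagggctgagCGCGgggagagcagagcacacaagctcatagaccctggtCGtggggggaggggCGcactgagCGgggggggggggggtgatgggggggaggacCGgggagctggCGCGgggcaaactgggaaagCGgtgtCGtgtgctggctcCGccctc

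The Olig2 window has 230 of its 250 bases inside the island, and the other 5 windows lie wholly inside theirs. Aldh1a2 holds 40 CG dinucleotides, Cnn3 28, Zc3h4 26, Olig2 22, Eef1a1 18 and Tlx3 13, against a median of 6 over the same window of 32851 RefSeq start sites. The G and C share is 78.8% for Cnn3, 77.6% for Aldh1a2, 75.6% for Zc3h4, 68% for Eef1a1, 66.8% for Olig2 and 48.8% for Tlx3, against a median of 52.4%. Tlx3 is thus the exception, with long AT-rich stretches before its start. A TATA box (TATAAA, either strand, found in 12.4% of all windows) was present at Olig2 alone of the 6. A CCAAT box (CCAAT, either strand, 33.8% of windows) was present at Olig2, Tlx3, Aldh1a2 and Cnn3. A GC box (GGGCGG, either strand, 32.7% of windows) was present at all except Aldh1a2, and an E-box (CACGTG, either strand, 6.02% of windows) at none. None of these 4 motifs contains another.

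Wide islands were distributed unevenly over gene classes. Families were matched by gene symbol into developmental factors and ligands, guidance and excitability genes, chromatin regulators and housekeeping genes, and 785 wide islands belonged to none of them. Of all single-TSS islands 12.5% were wide. Of developmental islands 90 of 186 (48.4%) were wide, against 56 of 744 housekeeping islands (7.53%). The share was 8 of 10 for SOX factors, 12 of 21 for zinc-finger and other patterning factors, 37 of 74 for homeobox factors, 10 of 21 for basic helix-loop-helix factors, 7 of 16 for forkhead factors and 13 of 37 for secreted signalling ligands and antagonists. Chromatin regulators had 27 of 76 wide islands (35.5%), ion channels and neurotransmitter receptors 22 of 78 (28.2%) and axon guidance genes 13 of 44 (29.5%). Among housekeeping families none of 55 cytosolic ribosomal, 43 mitochondrial ribosomal and 30 proteasome islands was wide, and the longest of these measured 1184, 936 and 864 bases. Splicing and RNA processing genes (14 of 87) and ubiquitin enzymes (15 of 91) were the most numerous wide housekeeping families.

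The share of wide islands was close to the overall 12.5% in each expression class. Of Top class islands 11.7% were wide, of Other class islands 12.6% and of Bottom class islands 9.80%, or 73, 910 and 10 islands. The developmental members included 4 Top and 6 Bottom class genes, and the housekeeping members 19 Top and 0 Bottom class genes. For 938 of the 993 islands no other TSS lay within 2000 bases.

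The members ranged from 1200 to 5114 bases. Among members with a symbol the widest was the island of the homeobox gene Nkx1-1 (chromosome 5, 33430439 to 33435552), with KAT7 at 0.451 and H3K14ac at 0.317. Next came Brd2, a bromodomain reader of acetylated histones (4586 bases, KAT7 0.589, H3K14ac 0.720), and Zfp423, a zinc-finger factor of neural and fat cell development (4368 bases, 0.449 in KAT7 and 0.410 in H3K14ac). Mex3b, an RNA-binding protein gene, had 4297 bases, with KAT7 at 0.417 and H3K14ac at 0.447, and the transcriptional co-regulator gene Mn1 had 3991 bases, with 0.376 in KAT7 and 0.341 in H3K14ac. In KAT7 Brd2 ranked 175 of 993. A member without a symbol, 100503912, had 4315 bases, which places it between Zfp423 and Mex3b, and ranked 5 in KAT7. At the other end, the shortest members were Ivns1abp and Syt9 with 1200 bases and Klf16 with 1201, at KAT7 levels of 0.410, 0.460 and 0.255 and H3K14ac levels of 0.524, 0.353 and 0.229. The longest islands left out were those of Inafm2, Itprid2 and Lrig1, all of 1199 bases, at KAT7 levels of 0.517, 0.535 and 0.728 and H3K14ac levels of 0.283, 0.395 and 0.442.

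Wide islands had about as much KAT7 as narrow islands and less H3K14ac. KAT7 was 0.484 (0.481 to 0.487) in wide and 0.497 (0.496 to 0.499) in narrow islands, a factor of 0.973 (0.967 to 0.980). H3K14ac was 0.439 (0.436 to 0.442) in wide and 0.481 (0.479 to 0.482) in narrow islands, a factor of 0.914 (0.907 to 0.920). The groups overlapped widely. Single wide islands ran from 0.154 to 1.28 in KAT7, with a median of 0.458 and quartiles of 0.379 and 0.551, and from 0.0706 to 1.17 in H3K14ac, with a median of 0.414 and quartiles of 0.323 and 0.540. The medians of narrow islands were 0.492 for KAT7 and 0.462 for H3K14ac. The KAT7 factor turned above 1 when the minimum length was 2000 bases (1.06) or when the narrow islands were those of 800 to 1199 bases alone (1.01, 0.998 to 1.01), an alternative chosen after the values had been seen.

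Levels did not follow length evenly. KAT7 was 0.546 in islands of 202 to 299 bases, 0.515 at 300 to 499, 0.500 at 500 to 799 and 0.481 at 800 to 1199 bases. Within the wide islands it was 0.476 at 1200 to 1498 bases (490 islands), 0.462 at 1500 to 1987 (320), 0.512 at 2003 to 2979 (145) and 0.539 at 3019 to 5114 (38). H3K14ac followed the decline, and its later increase was smaller. It was 0.506, 0.487, 0.492 and 0.464 over the 4 narrow bands and 0.452, 0.426, 0.433 and 0.444 over the 4 wide ones. The KAT7 to H3K14ac ratio was thus 1.05 (1.04 to 1.07) in the shortest wide band, 1.08 (1.07 to 1.10) in the next, 1.18 (1.16 to 1.21) in the third and 1.21 (1.18 to 1.25) in the widest, against 1.02 to 1.08 in the narrow bands. Band medians of single islands moved less than these sums, with KAT7 at 0.461, 0.446, 0.469 and 0.463 over the 4 wide bands.

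**Figure D1:**
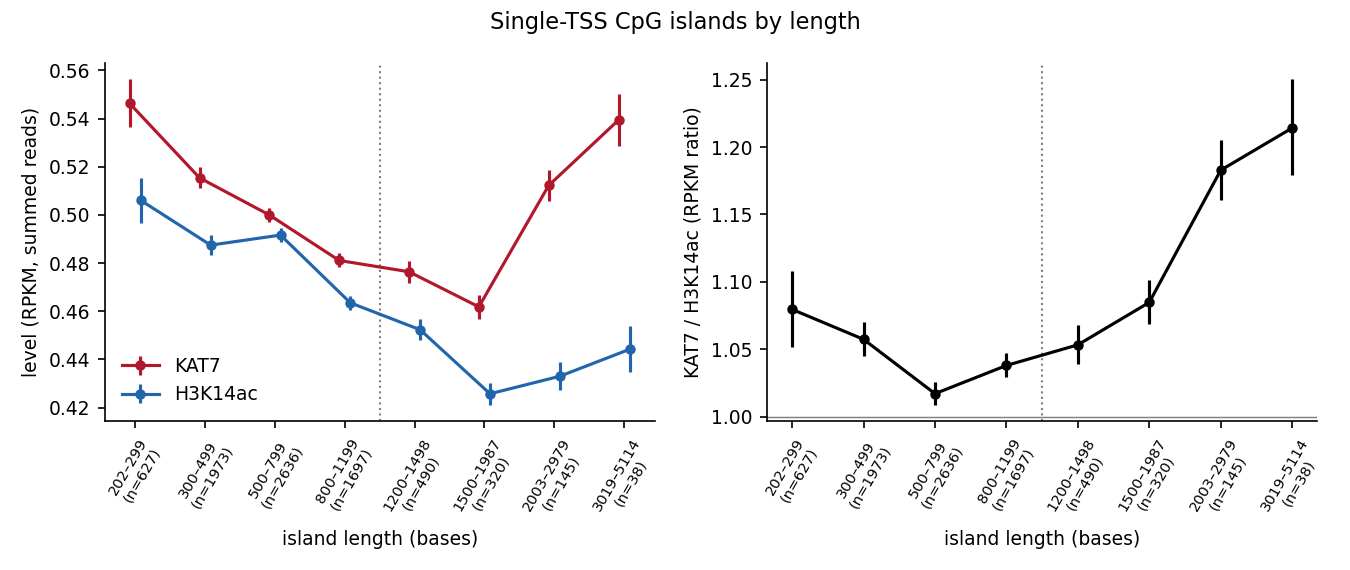
Summed KAT7 and H3K14ac levels (left, RPKM) and their ratio (right) by band of island length in bases, with the number of islands under each band, 95% counting intervals as bars and a dotted line at 1200 bases. The value axes do not start at 0. The ratio lies between 1.02 and 1.08 left of the line and reaches 1.21 in the widest band, where KAT7 is 0.539 and H3K14ac 0.444.

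Over all wide islands the ratio was 1.10 (1.09 to 1.11), against 1.03 (1.03 to 1.04) over narrow islands. KAT7 was at least 1.5 times H3K14ac at 148 of 993 wide islands (14.9%), which is below the 19.1% of all single-TSS islands. H3K14ac was at least 1.5 times KAT7 at 38 (3.83%), against 9.51% of all. Both shares were lower in wide islands, which hold more reads, with a median of 96 KAT7 and 94 H3K14ac reads per wide island against 38 and 37 per narrow one. By the counting interval, which takes the reads into account, KAT7 was higher at 247 wide islands (24.9%; 14.7% of all) and H3K14ac at 89 (8.96%; 8.02% of all). The part of read number in these shares was not tested. Across the 993 wide islands KAT7 and H3K14ac correlated with a Pearson r of 0.635 and a Spearman rho of 0.651, as a description across islands that share library and depth. Across narrow islands r was 0.439 and rho 0.419.

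Expression class separated both columns within the wide islands, and H3K14ac more than KAT7. KAT7 was 0.619 (0.607 to 0.632) in Top, 0.475 (0.472 to 0.478) in Other and 0.402 (0.376 to 0.430) in Bottom class islands. H3K14ac was 0.610 (0.598 to 0.622) in Top, 0.428 (0.425 to 0.431) in Other and 0.287 (0.266 to 0.310) in Bottom class islands. Top over Bottom was thus 1.54 (1.44 to 1.65) for KAT7 and 2.12 (1.96 to 2.30) for H3K14ac. In narrow islands the factors were smaller, 1.29 (1.24 to 1.34) for KAT7 and 1.559 (1.499 to 1.623) for H3K14ac. The Top class was slightly higher in wide than in narrow islands, by a factor of 1.11 (1.08 to 1.14) for KAT7 and 1.04 (1.02 to 1.07) for H3K14ac. From island medians these factors were 1.03 for KAT7 and 1.09 for H3K14ac. The Bottom class was lower in wide than in narrow islands in H3K14ac, by a factor of 0.768 (0.703 to 0.837). The interval of its KAT7 factor, 0.927 (0.858 to 1.00), reached 1. Developmental genes made up 6 of 10 wide and 11 of 92 narrow Bottom class islands. Among these, H3K14ac was 0.300 (0.271 to 0.331) in wide and 0.315 (0.284 to 0.349) in narrow islands. The KAT7 to H3K14ac ratio was 1.02 (0.987 to 1.04) in Top, 1.11 (1.10 to 1.12) in Other and 1.40 (1.26 to 1.55) in Bottom class wide islands. Island medians of the Bottom class were 0.386 in KAT7 and 0.292 in H3K14ac. Gene bodies of genes with a wide island had medians of 0.406 in KAT7 and 0.384 in H3K14ac. No IgG level was subtracted, so neither the levels nor the ratio show KAT7 above background at Bottom class islands.

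**Figure D2:**
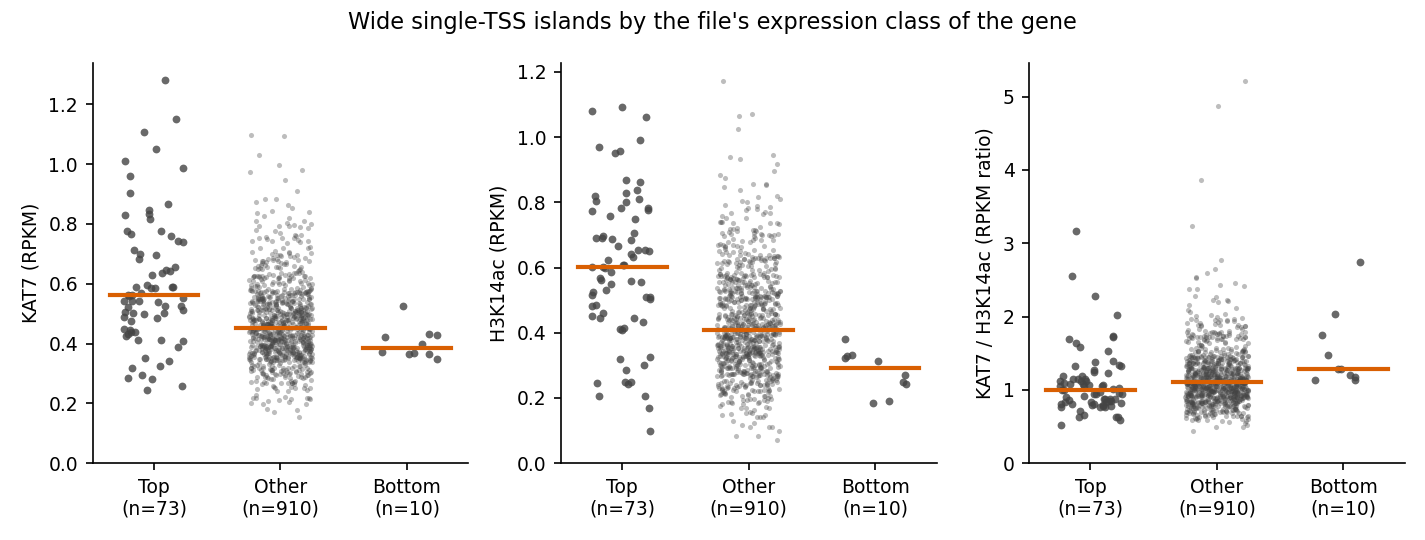
KAT7 and H3K14ac (RPKM) and their ratio at each wide island by the table's expression class, Top, Other and Bottom, with 1 point per island and the class median as a bar. The 10 Bottom class islands lie between 0.347 and 0.526 in KAT7 and between 0.184 and 0.381 in H3K14ac, inside the span of the Top class, and each has a ratio above 1.

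The 8 Top class members with most reads were not alike. Olig1 and Olig2, neighbouring basic helix-loop-helix genes of the oligodendrocyte lineage and ventral progenitors, held the 2 highest KAT7 values of all wide islands, 1.15 at Olig1 and 1.28 at Olig2. In H3K14ac Olig1 ranked 2 of 993 with 1.09 and Olig2 ranked 40 with 0.784, so the ratio was 1.05 (0.903 to 1.23) at Olig1 and 1.63 (1.39 to 1.92) at Olig2. Ckb, brain creatine kinase, also had more KAT7 (1.01) than H3K14ac (0.597), with a ratio of 1.69 (1.39 to 2.06). Sox2, a defining factor of neural stem cells, had 0.776 in KAT7 and 0.631 in H3K14ac, and Trib2, a pseudokinase gene, 0.867 in KAT7 and 0.773 in H3K14ac. The opposite order held at Klf10, a zinc-finger factor induced by TGF-beta, with KAT7 at 0.512 and H3K14ac at 0.778 and a ratio of 0.658 (0.545 to 0.794). Dusp6, a phosphatase that limits ERK signalling, had 0.694 in KAT7 and 0.838 in H3K14ac, a ratio of 0.828 (0.699 to 0.980). Ptma, the prothymosin alpha gene, had 0.588 in KAT7 and 0.692 in H3K14ac, a ratio of 0.850 (0.727 to 0.993). Without the Olig1 and Olig2 islands, left out after the values had been seen, Top over Bottom was 1.48 (1.38 to 1.59) for KAT7 and 2.08 (1.92 to 2.25) for H3K14ac.

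The 10 Bottom class members were mostly regulators of other tissues or of later stages, and KAT7 was nominally above H3K14ac at 10 of 10, against 64.5% of all wide islands. By the 1.5-fold criterion 3 of 10 passed in that direction (14.9% of wide and 19.1% of all single-TSS islands) and 0 in the other. Aldh1a2, which makes retinoic acid, was the furthest apart, with KAT7 at 0.526, H3K14ac at 0.192 and a ratio of 2.74 (1.86 to 4.12). Hrh3, a histamine receptor of neurons, had 0.373 in KAT7 and 0.184 in H3K14ac, a ratio of 2.03 (1.35 to 3.09), and Hoxa11, a limb and genital tract factor, had 0.429 in KAT7 and 0.244 in H3K14ac, a ratio of 1.75 (1.21 to 2.58). At Sim2, a single-minded family factor, the ratio was 1.28 with a lower bound barely above 1 (1.00 to 1.64). At the other 6 the interval included 1. They were Tbx3 with 1.47, Hoxb9 with 1.28, Col13a1 with 1.20, Cdx2 with 1.17, and Dlx3 and Fezf2 with 1.13 each. Fezf2, a factor of deep-layer cortical neurons, had the most H3K14ac of the 10 (0.381).

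Developmental members had less H3K14ac than housekeeping members, and the KAT7 difference was smaller. KAT7 was 0.481 (0.472 to 0.490) over the 90 developmental islands and 0.535 (0.521 to 0.548) over the 56 housekeeping islands, a factor of 0.900 (0.873 to 0.929). H3K14ac was 0.380 (0.372 to 0.387) over developmental and 0.537 (0.525 to 0.551) over housekeeping islands, a factor of 0.707 (0.685 to 0.729). The island median of KAT7 was 0.415 for developmental and 0.516 for housekeeping genes, with 0.487 for all single-TSS islands. The median of H3K14ac was 0.342 for developmental and 0.521 for housekeeping genes, with 0.456 for all. Within the Other class alone, chosen after the values had been seen, the factors were 0.877 (0.845 to 0.910) for KAT7 and 0.740 (0.712 to 0.769) for H3K14ac. Developmental islands were longer, with a median of 1738 bases against 1413.5 for housekeeping islands. With a minimum of 2000 bases, which left 36 developmental and 4 housekeeping islands, the KAT7 factor was 1.01 (0.934 to 1.08) and the H3K14ac factor 0.930 (0.859 to 1.01), and both intervals included 1. In narrow islands the factors were 0.791 (0.765 to 0.818) for KAT7 and 0.721 (0.697 to 0.746) for H3K14ac.

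The 2 classes also differed in the balance of the columns. The ratio was 1.27 (1.23 to 1.30) over developmental and 0.995 (0.961 to 1.03) over housekeeping islands, against 1.10 over all wide islands. In the Other class alone it was 1.26 (1.23 to 1.30) over developmental and 1.07 (1.02 to 1.12) over housekeeping islands. With a minimum of 2000 bases it was 1.31 (1.26 to 1.36) over 36 developmental and 1.21 (1.09 to 1.34) over 4 housekeeping islands, and these intervals overlapped. KAT7 was nominally the higher column at 77 of 90 developmental (85.6%) and at 27 of 56 housekeeping islands, against 64.5% of wide and 57.7% of all single-TSS islands. It was at least 1.5 times H3K14ac at 20 of 90 developmental islands (22.2%) and at 5 of 56 housekeeping islands (8.93%). This share was 14.9% over all wide and 19.1% over all single-TSS islands. The developmental share lay above both, by less against all single-TSS islands. In the other direction the counts were 0 of 90 developmental and 7 of 56 housekeeping islands (12.5%), against 3.83% of wide and 9.51% of all. Developmental islands had 1.14 (1.10 to 1.18) times the KAT7 of narrow developmental islands and 1.00 (0.962 to 1.04) times their H3K14ac in summed reads, but 1.01 and 0.880 times in island medians. Housekeeping islands had 0.998 (0.971 to 1.03) times the KAT7 and 1.02 (0.994 to 1.05) times the H3K14ac of narrow ones.

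**Figure D3:**
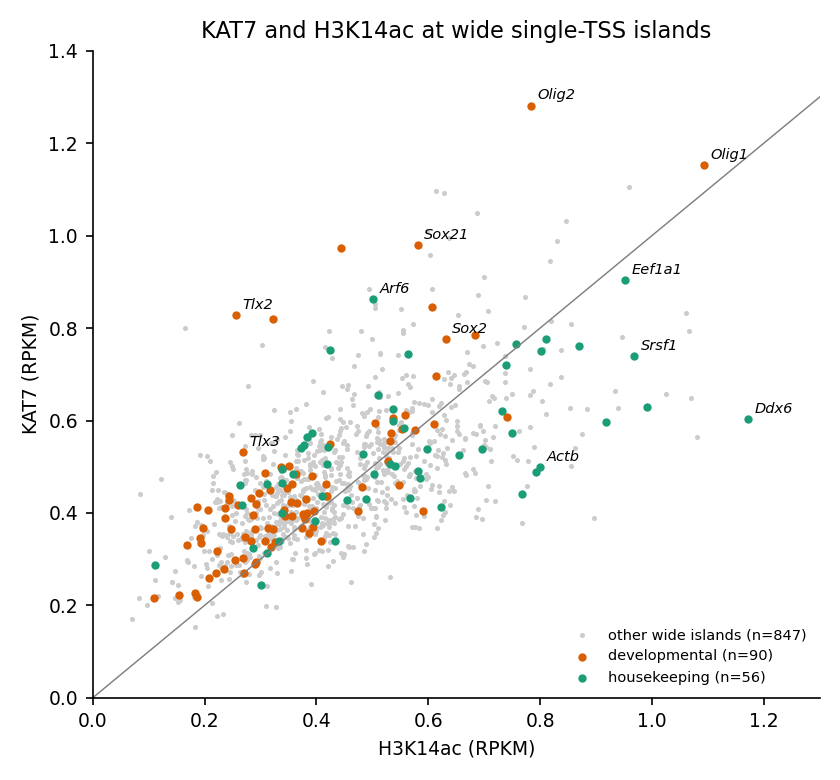
KAT7 against H3K14ac (RPKM) at the 993 wide islands, with 1 point per island, developmental (90), housekeeping (56) and other islands (847) in different colours and the line of equal values. Developmental islands crowd at low H3K14ac and above the line, where their medians are 0.415 for KAT7 and 0.342 for H3K14ac. Housekeeping islands spread to both sides, with Arf6 as an example above the line and Ddx6 below it.

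In summed reads homeobox factors had the least H3K14ac and the highest ratio of the developmental families. By island median the ratio was higher for basic helix-loop-helix factors, 1.41 against 1.28 for homeobox factors. Over the 37 homeobox islands KAT7 was 0.456 and H3K14ac 0.323, a ratio of 1.41 (1.35 to 1.48). KAT7 was nominally higher at 35 of 37, against 64.5% of wide islands. At 11 of 37 KAT7 was at least 1.5 times higher, against 4 of 10 basic helix-loop-helix islands. This share was 14.9% of wide and 19.1% of all islands. Tlx2, a factor of enteric neurons, stood at 0.827 in KAT7 and 0.256 in H3K14ac, a ratio of 3.23 (2.57 to 4.09) from 309 and 101 reads. Its relative Tlx3, whose start is shown above, had 0.532 in KAT7 and 0.269 in H3K14ac, a ratio of 1.98 (1.61 to 2.43). Dlx2, a factor of ventral forebrain progenitors, had low values in both columns, 0.366 in KAT7 and 0.291 in H3K14ac, with an interval of the ratio that reached 1 (0.975 to 1.63).

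Basic helix-loop-helix factors (10 islands) had KAT7 at 0.628, H3K14ac at 0.492 and a ratio of 1.28 (1.18 to 1.38), but medians of only 0.413 in KAT7 and 0.353 in H3K14ac. Olig1, Olig2 and Id3 made up the upper end, and Id3, an inhibitor of such factors, had 0.846 in KAT7 and 0.607 in H3K14ac. Neurog2, a proneural factor, was lower, with KAT7 at 0.325 and H3K14ac at 0.318 and an interval of the ratio that included 1 (0.754 to 1.39). SOX factors (8 islands) had 0.594 in KAT7 and 0.484 in H3K14ac, a ratio of 1.23 (1.13 to 1.33). Sox21 ranked 11 of all wide islands in KAT7 with 0.979, against 0.581 in H3K14ac, a ratio of 1.69 (1.42 to 2.00), while Sox11, a factor of immature neurons, had 0.580 in KAT7 and 0.577 in H3K14ac.

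Zinc-finger and other patterning factors (12 islands) had KAT7 at 0.453 and H3K14ac at 0.371, a ratio of 1.22 (1.13 to 1.31). Nfib, a factor of glial and neuronal differentiation, was the 1 of 12 with KAT7 (0.608) below H3K14ac (0.741), and its interval reached 1 (0.671 to 1.00). Nr2e1, a nuclear receptor that maintains neural stem cells, had 0.696 in KAT7 and 0.615 in H3K14ac, and Sall3 had 0.574 in KAT7 and 0.534 in H3K14ac. In the remaining developmental families the ratio was closer to that of all wide islands. It was 1.12 (1.04 to 1.21) for 13 secreted ligands and antagonists, 1.12 (0.924 to 1.37) for 3 T-box and GATA factors and 1.08 (0.978 to 1.18) for 7 forkhead factors. Vegfa, an angiogenic growth factor, had 0.786 in KAT7 and 0.684 in H3K14ac, and Pdgfa, a growth factor for oligodendrocyte precursors, had 0.443 in KAT7 and 0.297 in H3K14ac, a ratio of 1.49 (1.19 to 1.87). Inhbb, an activin subunit, had 0.436 in KAT7 and 0.418 in H3K14ac. The forkhead genes Foxo3, Foxq1 and Foxo1 had ratios of 1.18, 1.04 and 1.19, and the T-box gene T (brachyury), a mesoderm factor, had 1.11.

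Single developmental members outside these examples, chosen after their values had been seen, spanned much of the range. Pou3f3, a POU factor of neural progenitors, had KAT7 at 0.974 and H3K14ac at 0.444, and Dmbx1, a homeobox factor of the midbrain, had KAT7 at 0.820 and H3K14ac at 0.322. Low values in both columns were found at single forebrain factors and single factors of other regions. Insm1, a factor of neurogenic progenitors, had 0.335 in KAT7 and 0.194 in H3K14ac. Fezf1, a forebrain factor, had 0.299 in KAT7 and 0.255 in H3K14ac, and Hoxd8, a trunk factor, had 0.216 in KAT7 and 0.111 in H3K14ac. As groups, 21 listed forebrain progenitor factors had 0.638 in KAT7 and 0.500 in H3K14ac. The 27 listed factors of other body regions had 0.447 in KAT7 and 0.324 in H3K14ac. Both lists were made with earlier results known, hold wide members alone and leave out Fezf1 and Dmbx1. The forebrain list holds 4 Top and 1 Bottom class genes, and the other list 0 Top and 4 Bottom class genes. The group levels are therefore a description of these lists alone, and single islands of the groups overlapped.

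**Figure D4:**
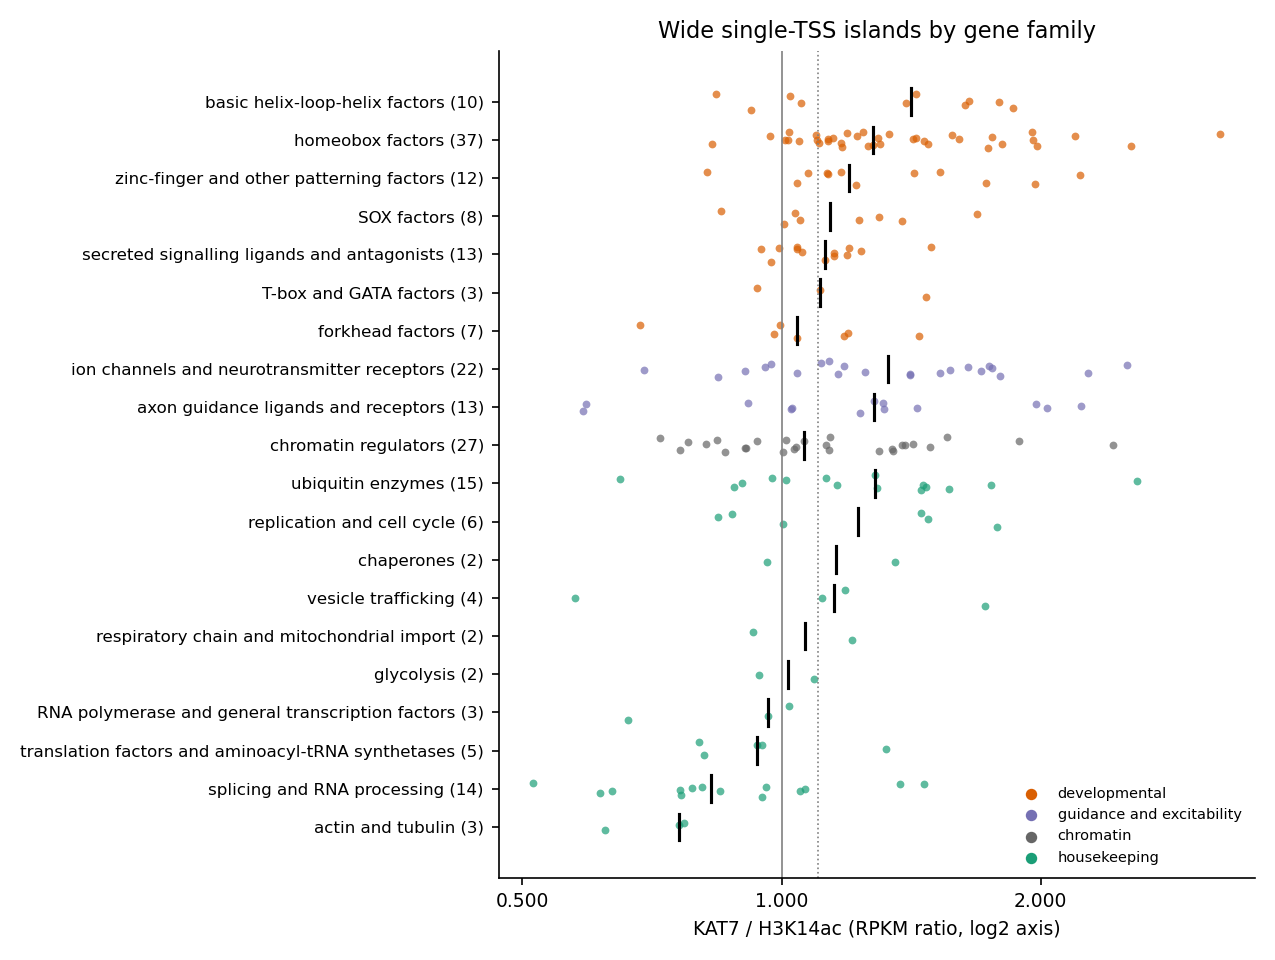
KAT7 to H3K14ac ratio (log2 axis) at each wide island by gene family, with 1 point per island, the family median as a black bar, the family size in parentheses, a solid line at 1 and a dotted line at the ratio of all wide islands (1.10). Homeobox factors lie mostly right of the dotted line, and actin and tubulin and splicing genes mostly left of 1.

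Guidance and excitability genes had a ratio close to that of developmental factors. Ion channels and neurotransmitter receptors (22 islands) had KAT7 at 0.435 and H3K14ac at 0.327, a ratio of 1.33 (1.25 to 1.42). Of these, 9 of 22 were past 1.5-fold in KAT7, against 14.9% of wide and 19.1% of all islands. Adrb1, the beta-1 adrenergic receptor, had 0.763 in KAT7 and 0.303 in H3K14ac, a ratio of 2.52 (1.96 to 3.26), and Kcnc1, a fast potassium channel, had 0.841 in KAT7 and 0.550 in H3K14ac. Kcnc4, of the same channel family, had 0.471 in KAT7 and 0.485 in H3K14ac. Axon guidance genes (13 islands) had 0.411 in KAT7 and 0.365 in H3K14ac, a ratio of 1.13 (1.04 to 1.22). Their median ratio was 1.28, against 1.33 for the channels and receptors. KAT7 was nominally higher at 10 of 13, against 64.5% of wide islands. Efna5, an ephrin ligand, had 0.380 in KAT7 and 0.187 in H3K14ac, a ratio of 2.03 (1.54 to 2.70), and Plxnc1, a semaphorin receptor, had 0.474 in KAT7 and 0.384 in H3K14ac. Sema4c, a semaphorin, had less KAT7 (0.503) than H3K14ac (0.855), a ratio of 0.588 (0.461 to 0.747). All 35 islands of both families were in the Other class.

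Chromatin regulators (27 islands) had KAT7 at 0.493 and H3K14ac at 0.448, with a ratio of 1.10 (1.05 to 1.15), the value of all wide islands. Brd2 was below it, at 0.817 (0.711 to 0.940), and Smarca2, an ATPase of chromatin remodelling complexes, above it, at 1.39 (1.13 to 1.72). The acetyltransferase gene Ep300 had 0.769 in KAT7 and 0.723 in H3K14ac. Kat6a and Kat6b, MYST-family relatives of Kat7 chosen after their values had been seen, had 0.288 in KAT7 and 0.256 in H3K14ac at Kat6a and 0.382 in KAT7 and 0.335 in H3K14ac at Kat6b.

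Housekeeping families differed from one another. Splicing and RNA processing genes (14 islands) had KAT7 at 0.531 and H3K14ac at 0.630, a ratio of 0.842 (0.787 to 0.901). Srsf1, a splicing factor, had 0.739 in KAT7 and 0.969 in H3K14ac, and Hnrnpu, a nuclear RNA-binding protein, 0.777 in KAT7 and 0.811 in H3K14ac. Ddx6, an RNA helicase of messenger RNA storage and decay, had KAT7 at 0.603 and the most H3K14ac of all 993 islands, 1.17. The actin and tubulin group (3 islands) had 0.501 in KAT7 and 0.690 in H3K14ac, a ratio of 0.726 (0.630 to 0.835). Actb, cytoplasmic beta-actin, had 0.499 in KAT7 and 0.800 in H3K14ac, Pfn1, an actin-binding protein, 0.537 in KAT7 and 0.697 in H3K14ac, and Tubb4b, a tubulin, 0.431 in KAT7 and 0.568 in H3K14ac. Translation factors (5 islands) had the highest levels, 0.669 in KAT7 and 0.698 in H3K14ac, led by the elongation factor Eef1a1 with 0.904 in KAT7 and 0.952 in H3K14ac. RNA polymerase and general transcription factors (3 islands) had 0.419 in KAT7 and 0.501 in H3K14ac, where Gtf2i had a ratio of 0.662 (0.502 to 0.869), and Polr2a, the largest subunit of RNA polymerase II, had only 0.340 in KAT7 and 0.333 in H3K14ac.

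Ubiquitin enzymes (15 islands) had KAT7 at 0.535 and H3K14ac at 0.467, and the interval of their ratio of 1.15 (1.07 to 1.23) included the 1.10 of all wide islands. The group matched as replication and cell cycle (6 islands) lay above it, with 0.552 in KAT7 and 0.434 in H3K14ac and a ratio of 1.27 (1.15 to 1.41). In that group Cdk13, a kinase of transcription elongation rather than of the cell cycle, had 0.753 in KAT7 and 0.424 in H3K14ac, and Cdk6, which drives entry into S phase, 0.462 in KAT7 and 0.312 in H3K14ac, while Cdk17 had 0.760 in KAT7 and 0.869 in H3K14ac. Among ubiquitin enzymes, Ube2g1, a conjugating enzyme, had less KAT7 (0.596) than H3K14ac (0.918), and the cullin Cul1 had 0.766 in KAT7 and 0.757 in H3K14ac. Vesicle trafficking (4 islands) held both orders, with a ratio of 1.72 (1.33 to 2.24) at Arf6, a small GTPase, and 0.575 (0.427 to 0.769) at Vamp4, a SNARE protein. Both glycolysis genes, Hk2 and Pkm, and both respiratory chain and import genes, Ndufaf3 and Tomm6, had intervals of the ratio that included 1. The chaperone genes Hspa1a and Hspa1b are near-identical copies, so their reads cannot be assigned with certainty, and their ratios were 1.35 and 0.962. Within the Top class the housekeeping ratio was 0.886 (0.836 to 0.938) over 19 islands, and the 4 developmental Top class islands had 1.30 (1.19 to 1.42).

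Members with a symbol were ranked by the lower bound of the KAT7 interval. After Olig2 and Olig1 came Tsc22d2, a leucine-zipper gene, Fam181b and Irf2bpl. The last 3 had KAT7 levels of 1.10, 1.11 and 1.03, with lower bounds of 0.988, 0.959 and 0.937. Fam181b was also high in H3K14ac (0.959), while Tsc22d2 had 0.614 there. By the lower bound in H3K14ac, Ddx6 and Olig1 were followed by Cnn3, Khdrbs1 and Spred2, at levels of 1.08, 1.07 and 1.07. Cnn3 is an actin-binding calponin, Khdrbs1 an RNA-binding protein known as Sam68, and Spred2 an inhibitor of Ras and ERK signalling. KAT7 at these 3 was 0.563, 0.649 and 0.793, above the median of wide islands in each case.

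The ratios with the highest lower bounds were at Rbm15b, Nr2c2, Tlx2, Msi1 and Adrb1. Rbm15b, a cofactor of RNA methylation, had KAT7 at 0.800 and H3K14ac at 0.164, so both columns stood apart from the medians, and the ratio was 4.87 (3.48 to 6.94). Nr2c2, an orphan nuclear receptor, and Msi1, the RNA-binding protein Musashi of neural progenitors, had KAT7 values near the median, 0.441 at Nr2c2 and 0.473 at Msi1. H3K14ac was low at both, 0.0844 from 16 reads at Nr2c2 and 0.122 from 29 reads at Msi1, and the ratios were 5.22 (3.02 to 9.57) and 3.86 (2.54 to 6.04). At the low end Zc3h4, a zinc-finger protein that restrains noncoding transcription, had KAT7 at 0.390 and H3K14ac at 0.896, a ratio of 0.435 (0.340 to 0.553). Ppm1a, a phosphatase, had 0.262 in KAT7 and 0.531 in H3K14ac, and Atxn2l, an RNA-binding protein, 0.379 in KAT7 and 0.767 in H3K14ac, both with a ratio of 0.494. Ddx6 with 0.514 and Cnn3 with 0.522 completed the 5 with the lowest upper bounds. These were picked by the ratio from 993 islands, so their distances from the median are a description.

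In the median 66.8% of a wide island lay downstream of the TSS, against 70.4% of a narrow one. In 497 wide islands over 66.7% did, in 409 the TSS lay near the middle, and in 87 under 33.3% lay downstream. KAT7 was 0.503 (0.499 to 0.508) in islands with most of their length downstream, 0.476 in those between and 0.414 (0.405 to 0.422) in islands with most of it upstream. H3K14ac was 0.454 (0.450 to 0.458) in islands with most of their length downstream, 0.436 in those between and 0.373 (0.365 to 0.381) in islands with most of it upstream. The first of these groups had 1.22 times the level of the last in both columns, and the ratio was 1.11 in both. Zc3h4, with 272 of its 1876 bases downstream, and Polr2a, with 9.12%, lie at the upstream end, and Irf2bpl, with 96.2%, Fam181b, with 96.0%, and Spred2, with 95.9%, at the other.

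Short elements of at most 160 bases that the table lists as Enh or IS gave the profile around the start of these genes, by the distance of their centre to the nearest TSS. Each distance band held elements of 100 to 261 of the 993 genes with a wide island, and of 290 to 1352 genes with a narrow one, so the profile describes those genes alone. The elements can lie outside the island, and wide or narrow islands below stand for the genes that have them. In the 150 bases before the TSS KAT7 was 0.487 (0.459 to 0.516) at genes with a wide island and 0.567 (0.559 to 0.576) at genes with a narrow one, and H3K14ac was 0.341 (0.318 to 0.364) at wide and 0.368 (0.361 to 0.375) at narrow islands. The wide islands remained lower up to 600 bases downstream, with the largest gap in H3K14ac in the first 150 bases, 0.480 (0.452 to 0.509) at wide against 0.599 (0.587 to 0.612) at narrow islands. From 600 to 1000 bases downstream the order was the opposite. Narrow islands had a median length of 582 bases, so this band lies outside most of them. KAT7 in it was 0.868 (0.842 to 0.894) at genes with a wide island and 0.798 (0.784 to 0.812) at genes with a narrow one. H3K14ac was 0.768 (0.745 to 0.792) at genes with a wide island and 0.708 (0.695 to 0.721) at genes with a narrow one. From 1000 to 2000 bases KAT7 was still higher at wide islands, 0.802 (0.779 to 0.825) against 0.751 (0.733 to 0.768) at narrow ones, and the H3K14ac intervals overlapped, 0.624 (0.605 to 0.644) at wide against 0.608 (0.593 to 0.623) at narrow islands. The highest band was 600 to 1000 bases for KAT7 at wide islands and 300 to 600 bases at narrow ones. Upstream by more than 300 bases the groups' intervals overlapped in both columns.

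**Figure D5:**
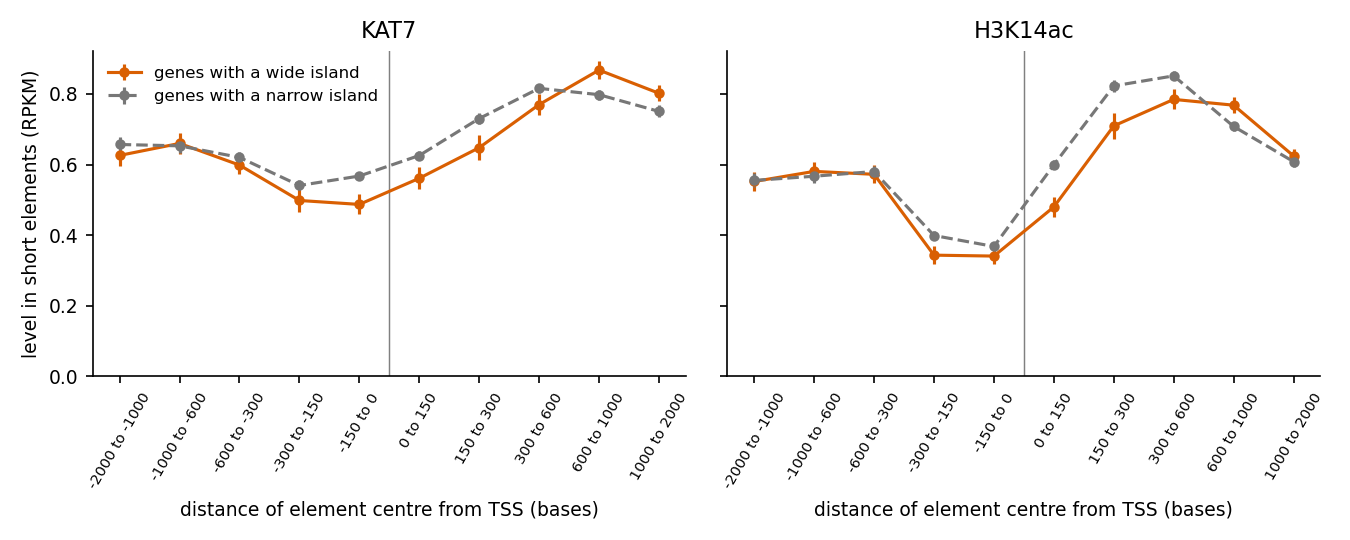
KAT7 (left) and H3K14ac (right) in short elements by distance of their centre from the TSS in bases, negative upstream, for genes with a wide island (orange, solid) and a narrow island (grey, dashed), with 95% counting intervals. Both columns dip before the TSS, H3K14ac to 0.341 at wide islands, and KAT7 at wide islands is highest from 600 to 1000 bases downstream, at 0.868.

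Larger regions that overlap the islands in part were also compared. Gene bodies of at least 10000 bases, which include the downstream end of the island, had medians of 0.406 for KAT7 and 0.384 for H3K14ac at 622 genes with a wide island, and of 0.402 in KAT7 and 0.374 in H3K14ac at 4430 genes with a narrow one. The table's promoter windows of plus-strand genes, which end at the TSS, had medians of 0.403 in KAT7 and 0.356 in H3K14ac at 485 genes with a wide island and of 0.410 in KAT7 and 0.360 in H3K14ac at 3504 with a narrow one. The wide islands themselves, with medians of 0.458 in KAT7 and 0.414 in H3K14ac, stood above both. Narrow islands, with medians of 0.492 in KAT7 and 0.462 in H3K14ac, likewise stood above both regions of their genes. Developmental wide islands had an H3K14ac median of 0.342. It was 0.369 in gene bodies of 29 and 0.325 in promoter windows of 41 of these genes. Gene bodies of 39 Top class genes with a wide island had medians of 0.442 for KAT7 and 0.395 for H3K14ac. The 4 members without a symbol are listed by gene identifier alone, and 1 of them, 100503912 on chromosome 11, had the fifth highest KAT7 value of all wide islands, 1.09, with H3K14ac at 0.628.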

How the data were processed

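The deposited table holds read counts per region and RPKM values that the authors computed for 1 merged KAT7 and 1 merged H3K14ac column, per the file headers. The submitters' processing notes name Bowtie2, SAMtools, Picard, deepTools, featureCounts and the mm10 build, with versions not stated in the sources used here. The deposited RPKM equalled the count over the region's end minus start and over the column total for 100% of regions, within a relative tolerance of 1e-06. The meaning of the labels SC and gc in the headers is not stated. Input or IgG columns were not used here.

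Islands were selected by class, chromosome, length and TSS, then kept if their mean RPKM was at least 0.1 and neither value exceeded 5, and if they overlapped no other selected island, which removed 0 wide and 9 narrow islands. Levels are summed counts over summed bases scaled to the column total, with exact Poisson intervals, and ratios have exact Clopper-Pearson intervals at 95%. No test across samples was possible, so there are no p-values. The code for ratios was tested on simulated Poisson counts with known ratios, which hold counting error only. Levels were not tested in this way. The depth was 134111848 KAT7 and 141734087 H3K14ac reads, and the median wide island held 96 and 94 of them. Python 3.11.15, numpy 2.4.6, pandas 2.3.3, scipy 1.17.1 and matplotlib 3.10.9 were used.

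The members and gene lists were chosen with earlier results of these data known. Families were matched by symbol pattern and include genes whose role differs from the family name. The genes named are, among members with a symbol, the 5 widest, the 3 nearest the length threshold on each side, the 5 extremes by counting bound of each column and of the ratio in each direction, all Bottom class members, the 8 Top class members with most reads, the 3 members of each family with most reads, and a list of neural progenitor and housekeeping genes. A gene that this rule names is not reported here. Pou3f3, Dmbx1, Insm1, Fezf1, Hoxd8, Kat6a and Kat6b were chosen after their values had been seen. RefSeq promoter windows (GRCm38.p6) matched only 74.0% of the wide islands' genes, under the minimum of 80% set for comparing base makeup between groups, so that comparison is void and windows are shown for single genes.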

Additional observations from a re-analysis of the deposited data

How the results depend on the processing

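No paired analysis was possible because each antibody has 1 merged column without replicates, and leaving out a replicate could not be done for the same reason. Of 121 values under other settings 97 were classed as unchanged. For a ratio this meant an interval on the same side of 1, or including 1 as before, however far the ratio moved. Where the setting gives no interval it meant a value inside the interval in the text, and for a count a value within 1.5 times. Of the 121, 28 equalled the value in the text exactly, mostly where the filters had removed no wide island, and bear on nothing. For the values below the cause was not tested. Settings that left out the Olig1 and Olig2 islands, used the Other class alone or used narrow islands of 800 to 1199 bases were chosen after seeing the data. The wide over narrow KAT7 factor (0.973) was 1.06 with a minimum of 2000 bases, 1.01 against narrow islands of 800 to 1199 bases and 0.932 from island medians, and the H3K14ac factor from medians was 0.897. Top over Bottom for KAT7 (1.54) was 1.68 within length bands. It was 1.73 with minimums of 1500 and 2000 bases, which left 4 and 1 Bottom class islands. The developmental over housekeeping KAT7 factor (0.900) was 1.01 at a minimum of 2000 bases, 0.805 from medians, 0.776 within length bands and 0.905 (0.778 to 1.06) for homeobox genes against the 2 respiratory chain islands that were left of the stricter housekeeping list. The H3K14ac factor (0.707) was 0.841 (0.804 to 0.880) at a minimum of 1500 bases, 0.930 (0.859 to 1.01) at 2000 bases and 0.657 from medians. The developmental KAT7 to H3K14ac ratio was 1.28 and 1.31 with minimums of 1500 and 2000 bases and 1.19 as a median. The housekeeping ratio (0.995) was 1.12 with a minimum of 1500 bases, 1.21 with 2000 bases and 0.932 with columns centred on their medians, which also gave 1.19 for developmental (1.27) and 1.03 for all wide islands (1.10). The 148 islands past 1.5-fold in KAT7 became 236, 81 and 33 with minimums of 1000, 1500 and 2000 bases, among 1588, 503 and 183 wide islands, 119 with centred columns and 247 by the counting interval. The 38 islands past 1.5-fold in H3K14ac became 83, 13 and 3 with those minimums, 60 with centred columns and 89 by the interval. Single islands rest on a median of 96 KAT7 and 94 H3K14ac reads if wide, and 38 and 37 if narrow.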
